A study of Mus musculus with 36 samples.

Results

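The 3 arrays of OT-I CD8 T cells carrying a Ptpn2 hairpin and labelled tumor were compared with the 3 arrays of the same transduction labelled spleen, 6 of the 36 arrays of the series. They were chosen by their labels alone. OT-I cells are mouse CD8 T cells with a transgenic receptor for an ovalbumin peptide. Cells of all 12 groups carried a transduced hairpin (shRNA, an RNA that lowers its target's transcript) and had been given to mice with tumors of B16, a melanoma line. The other 5 transductions targeted LacZ, a bacterial gene used as the control, or mouse Ppp2r2d, Egr2, Arhgap5 or Alk, each with 3 arrays per label. No dose, time, age, host strain or number of animals is given in the sources used here, nor is it stated whether arrays sharing a group are from different mice. Each p therefore measures the spread between arrays, which was pooled over all 12 groups.

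Ptpn2 encodes a tyrosine phosphatase of the nucleus and endoplasmic reticulum, also called TCPTP. It removes phosphate from the kinases Jak1 and Jak3 and from several STAT proteins, and so limits responses to interferons and to cytokines such as interleukin 2. In T cells it also acts on the Src family kinases Lck and Fyn and limits signals from the T cell receptor. Loss of Ptpn2 in T cells is known to raise cytokine and receptor responses.

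Levels are the deposited log2 values of 18194 genes, each read from 1 probe set. A difference is labelled tumor minus labelled spleen on this log2 scale, given with its SE and, as adjusted p, limma's p adjusted by Benjamini-Hochberg over all 18194 genes. A gene was called, or said to rise or fall, at an adjusted p under 0.05, with n = 3 arrays a group. These are mixed RNA samples, so fewer cells of a type and less RNA per cell cannot be told apart.

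The labelled tumor arrays of the Ptpn2 hairpin were uneven. Array 1 correlated with its closest other array at 0.905, against at least 0.968 for each of the other 35 arrays. On it the 3' control probe set of Gapdh read 2.94 above the 5' set, against 0.25 to 1.39 on the others. Of the 3373 genes with a mean level over 4, 478 lay more than 2 below both other labelled tumor arrays in array 1, and 0 did so in array 2 or array 3. The lowest deposited value, a floor for genes with little signal, was -2.97, -3.96 and -1.38 in labelled tumor arrays 1 to 3 and -4.13, -4.44 and -3.49 in the labelled spleen arrays. Labelled tumor arrays 1 and 3 thus had the high floors, and array 1 had low values for many bright genes. Values without array 1 or after quantile normalization are given beside the results they change, and the part of these 2 features in the results was not tested.

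**Figure D1:**
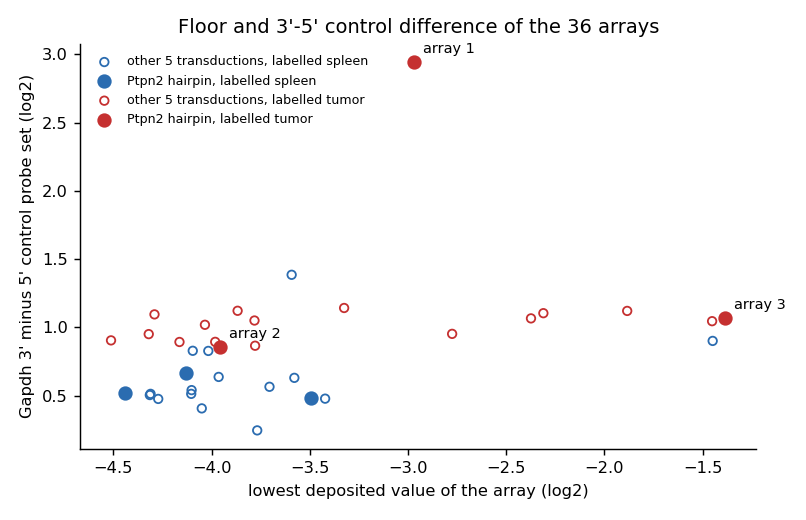
The horizontal axis gives the lowest deposited value of each of the 36 arrays (log2) and the vertical axis the Gapdh 3' minus 5' control difference (log2), with blue for labelled spleen, red for labelled tumor and filled points for the Ptpn2 hairpin. Labelled tumor array 1 stands alone at 2.94 and labelled tumor array 3 has the highest floor, -1.38.

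In the Ptpn2 hairpin arrays, 12 of 15 pigment cell genes, 19 of 21 macrophage genes, the inhibitory receptor genes Pdcd1 and Lag3, granzymes C to G, 24 of 25 genes of mitosis and 25 of 27 of DNA replication fell under the tumor label. Of naive and memory T cell genes 11 of 19 rose, Klf2 and Klf3 among them, as did 12 of 14 B cell genes. By limma 4390 genes rose and 4566 fell, 49.2% of those tested, 24.1% upward and 25.1% downward. At an unadjusted p under 0.05, 5529 of the 18194 genes were higher and 5094 lower. The arrays of the 2 labels did not overlap for 47.5% of genes. Counts of members below are to be read beside these values.

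The rises and falls were of different kinds. Of the 4390 rises 3446 (78.5%) had a mean below 0 in the labelled tumor arrays, while 132 of the 4566 falls had a labelled spleen mean below 0. The median difference was 0.95 over the 8639 genes with a mean below 0 and -0.58 over the other 9555, with 0.13 over all genes. Falls were kept more often than rises across settings: 2344 falls (51.34%) and 1034 rises (23.55%) were called the same way after quantile normalization, with a filter on dim genes, without labelled tumor array 1, and after quantile normalization without that array. Without labelled tumor array 3, which has the highest floor, 1945 genes rose and 4456 fell, and the median over all genes was -0.02. Leaving out labelled spleen array 1 gave 2611 rises and leaving out labelled tumor array 1 gave 2872, against 6181 without labelled tumor array 2.

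**Figure D2:**
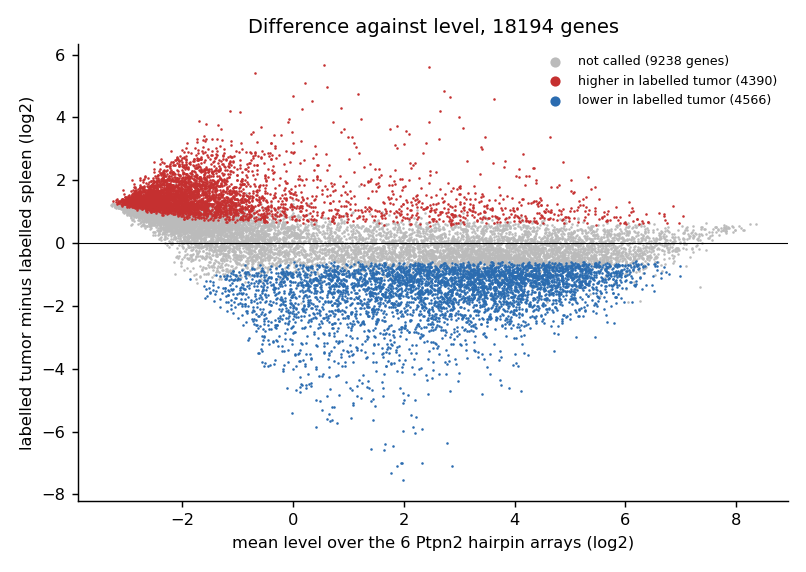
Each of 18194 genes is placed by its mean over the 6 Ptpn2 hairpin arrays (horizontal axis, log2) and its difference, labelled tumor minus labelled spleen (vertical axis, log2), with 4390 called rises in red, 4566 called falls in blue and the rest in grey. Most red points lie at the left, among dim genes, and the deepest blue points lie among genes of middle level.

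Ptpn2 itself, the targeted gene, read 4.52, 3.94 and 4.67 in the labelled spleen arrays and 4.49, 5.05 and 5.34 in the labelled tumor arrays. The groups overlap by 1 array, and the difference was 0.58 ± 0.28 (adjusted p = 0.085). It passed the threshold after quantile normalization (1.14, adjusted p = 1.2e-08) and without labelled tumor array 1 (0.82, adjusted p = 0.035), but the mean of its 4 probe sets gave -0.28. In a separate limma fit, with p adjusted over 34958 probe sets, the 2 dimmer probe sets of Ptpn2 fell. Their falls were 0.99 and 0.95 on the log2 scale (adjusted p = 0.033 and 0.027), and the probe set used above had an adjusted p of 0.090 there. As a check of the hairpin, the other 5 transductions read between 4.76 and 5.70 in 15 labelled spleen arrays and between 5.05 and 6.30 in 15 labelled tumor arrays. All 3 Ptpn2 labelled spleen arrays thus lay below the lowest of these 15. Against LacZ the level was lower by a difference of -0.79 in labelled spleen (adjusted p = 0.073) and -0.38 in labelled tumor, neither past the threshold.

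Among the JAK-STAT components, the receptors, kinases and transcription factors on which Ptpn2 acts or which feed them, the receptor subunits changed most and in both directions. Of 26 measured members 5 rose and 9 fell, with a median difference of -0.43 beside 0.13 over all genes. Il6ra, the alpha subunit of the interleukin 6 receptor, read 0.68, 1.16 and 1.11 in labelled spleen and 4.95, 4.83 and 5.21 in labelled tumor. It was low in every labelled spleen array and high in every labelled tumor array (4.01 ± 0.33, adjusted p = 6.9e-11). Il2ra, the high-affinity subunit of the interleukin 2 receptor, went the other way, from 4.78, 4.67 and 5.42 to 1.35, 1.72 and 0.87 (-3.64 ± 0.33, adjusted p = 4.6e-10). The interleukin 12 receptor subunits Il12rb2 (-3.30) and Il12rb1 (-1.98) and the interleukin 10 receptor Il10ra (-2.94) also fell. Their arrays did not overlap between labels, which held for 47.5% of all genes. Ifngr2, a subunit of the interferon gamma receptor, rose by 1.34 (adjusted p = 0.022), with 1 labelled spleen array above 1 labelled tumor array.

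The kinases and most STATs had smaller differences than these receptor subunits. Jak1 rose by 0.68 ± 0.25 (adjusted p = 0.026) and Jak3 had a difference of -1.21 ± 0.34 (adjusted p = 0.0048), while Jak2 (-0.39), Tyk2 (0.20) and Stat3 (-0.28) were not called. Stat5a differed by -0.63 ± 0.25 (adjusted p = 0.041) and Stat5b by -0.50 without a call. After quantile normalization Jak3 (-0.43, adjusted p = 0.15) and Stat5a (-0.20, adjusted p = 0.16) were not called and Tyk2 rose (0.90, adjusted p = 0.0023), and Stat5a was not called without labelled tumor array 1 (adjusted p = 0.15). Stat4, which carries interleukin 12 signals, read 5.92, 5.86 and 5.98 in labelled spleen and 0.79, 5.64 and 5.95 in labelled tumor. Array 1 alone was low: without it the difference was -0.13 (adjusted p = 0.72) instead of -1.79. Without labelled spleen array 1 or array 3 Stat4 was not called either (adjusted p = 0.060 and 0.058). Ifngr2 lost its call without labelled spleen array 1 or 3 or labelled tumor array 2 or 3 (adjusted p = 0.080, 0.11, 0.068 and 0.15). Without labelled spleen array 3, 3 members rose and 5 fell. After quantile normalization, under which 20.6% of all genes rose and 19.7% fell, 8 rose and 5 fell, with a median of 0.18, so the list had no direction that held across scalings.

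Feedback genes and targets of STATs were divided as well. Of 24 members 4 rose and 12 fell, with a median of -0.70. Socs3, a feedback inhibitor of gp130 cytokine signals, was the largest rise, from 3.43, 3.52 and 3.23 to 5.73, 4.95 and 5.48 (1.99 ± 0.34, adjusted p = 2.8e-05). The kinases Pim2 and Pim3 rose by 1.11 and 0.97 and cyclin D2 (Ccnd2) by 0.79, the last not called without labelled tumor array 1 (adjusted p = 0.094). Among the falls, Lif, a cytokine of the interleukin 6 family, went from 3.41, 2.55 and 3.22 to -0.11, 0.21 and -0.52 (-3.20 ± 0.35, adjusted p = 1.5e-08). Cdkn1a, an inhibitor of cyclin-dependent kinases, had a difference of -1.87 and Pias3, which binds STAT3, one of -1.75. Socs2 fell by 1.60 only with labelled tumor array 1, at -1.01 there (without it -0.60, adjusted p = 0.14), and its mean over probe sets gave 0.44. Socs4 likewise had -1.25 with all arrays and -0.81 without that array (adjusted p = 0.084), and neither was called after quantile normalization (adjusted p = 0.086 and 0.11). Cish, Socs1 and Myc were not called (-0.55, 0.73 and -0.26). After quantile normalization 8 members rose, 6 fell and the median was -0.07.

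Of the 26 measured tyrosine phosphatases and related genes, Ptpn2 included, 0 rose and 9 fell by limma, with a median of -0.60; at an unadjusted p under 0.05, 1 rose and 11 fell. Ptprs, a receptor phosphatase, read 6.49, 6.34 and 6.67 in labelled spleen and 4.16, 4.52 and 4.79 in labelled tumor (-2.01 ± 0.26, adjusted p = 3.3e-07). Ptpn3 had a difference of -3.28, Ptprk -2.08, Ptprj -1.36, Ptpn9 -1.26 and Ptprcap, a protein bound to CD45, -1.25. For Ptprk the mean over probe sets was 0.31. The low molecular weight phosphatase Acp1 fell by 1.32, and was not called without labelled tumor array 1 (-0.94, adjusted p = 0.055). The closest relative of Ptpn2, Ptpn1 (-0.42), the T cell phosphatases Ptpn6 (-0.05) and Ptpn22 (-0.34) and CD45 itself (Ptprc, -0.69) were not called, and Ptpn11 was, at -0.66 (adjusted p = 0.033). After quantile normalization 4 rose, 9 fell, and the median was -0.12. Ptprj (-0.60, adjusted p = 0.22) and Ptpn11 (-0.17, adjusted p = 0.35) were then not called, and Ptpn13, at -1.01 without a call on the deposited values (adjusted p = 0.054), was (-1.62, adjusted p = 0.00034).

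T cell receptor signalling genes rose more often than they fell. Of 26 measured members 8 rose and 2 fell, with a median of 0.27. Pag1, the membrane adaptor that recruits the kinase Csk, read 2.50, 2.46 and 2.86 in labelled spleen and 5.23, 4.79 and 5.03 in labelled tumor (2.41 ± 0.25, adjusted p = 5.2e-09). Rasgrp1, an activator of Ras downstream of the receptor, rose by 1.13, and Sos1 (1.08), the Tec family kinases Txk (1.05) and Tec (0.90), the transcription factor Nfatc2 (0.81), the kinase Prkcq (0.63) and the adaptor Fyb (0.61) rose as well. Txk and Fyb were not called without labelled tumor array 1 (adjusted p = 0.058 and 0.055). Nfkb2 and Nfatc1, both induced on activation, had differences of -1.64 and -1.10. Fyn, a substrate of Ptpn2, differed by 0.02 and Zap70 by -0.69, neither called. After quantile normalization 18 rose and 2 fell. Without labelled spleen array 2, 5 rose, and without labelled tumor array 2 or array 3, 4 fell.

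Interferon genes lay on the lower side under the tumor label. Of 23 measured members of the interferon gamma response 1 rose and 11 fell, with a median of -0.69, and of 24 type I interferon-stimulated genes 1 rose and 12 fell, with a median of -0.76. Cxcl9, a chemokine induced by interferon gamma, read 3.02, 3.33 and 3.18 in labelled spleen and -2.18, -3.01 and -1.20 in labelled tumor (-5.31 ± 0.43, adjusted p = 4.4e-11). Irf8, a transcription factor induced by interferon gamma, went from 5.98, 5.77 and 5.97 to 2.44, 2.00 and 1.65 (-3.88 ± 0.27, adjusted p = 1.9e-12). Both were low in every labelled tumor array, and both are also known in myeloid cells, whose markers were low in the same arrays. The interferon-induced GTPases Gbp2 (-3.41), Iigp1 (-3.24), Gbp3 (-2.59) and Irgm2 (-2.40) fell, whereas B2m, a subunit of MHC class I, differed by 0.08 without a call. Gbp2 read -1.76 in labelled tumor array 1 against 3.31 and 3.15 in the others, and without that array its difference was -1.75 (adjusted p = 1.1e-05).

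The type I list depended on the scaling. Zbp1, a sensor of nucleic acids, went from 5.67, 5.48 and 5.74 to 3.14, 4.15 and 4.16 (-1.81 ± 0.28, adjusted p = 8.5e-06). The RNA sensor Ifih1 had a difference of -1.74, Oasl1 one of -1.71 and the exonuclease Isg20 one of -1.34. Oas2 was the 1 rise (1.01 ± 0.29, adjusted p = 0.0060). After quantile normalization 7 members rose and 4 fell, with a median of -0.24, so that the balance of rises and falls turned with the scaling. Isg20 was then not called (-0.58, adjusted p = 0.067). The interferon gamma list gave 2 rises and 10 falls after quantile normalization, with a median of -0.29.

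The promoters of Gbp2 and Irf8 show what the STAT element looks like where it is present and absent, in genes of this response that fell. The sequences are RefSeq's on GRCm38.p6, 250 bases before to 50 after the annotated start. Capitals mark, on either strand, the CCAAT box, the cell cycle element TTTGAA, the STAT element TTCNNNGAA, where N is any base, and the GC box GGGCGG.
Irf8, chr8:120736108-120736407, plus strand, the first of 2 listed starts: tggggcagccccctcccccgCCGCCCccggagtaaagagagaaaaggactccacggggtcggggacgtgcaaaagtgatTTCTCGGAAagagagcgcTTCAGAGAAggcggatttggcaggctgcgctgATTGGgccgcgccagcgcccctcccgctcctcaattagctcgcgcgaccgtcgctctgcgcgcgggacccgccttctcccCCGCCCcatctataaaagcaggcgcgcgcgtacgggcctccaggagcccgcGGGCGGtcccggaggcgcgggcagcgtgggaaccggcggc
Gbp2, chr3:142620413-142620712, plus strand: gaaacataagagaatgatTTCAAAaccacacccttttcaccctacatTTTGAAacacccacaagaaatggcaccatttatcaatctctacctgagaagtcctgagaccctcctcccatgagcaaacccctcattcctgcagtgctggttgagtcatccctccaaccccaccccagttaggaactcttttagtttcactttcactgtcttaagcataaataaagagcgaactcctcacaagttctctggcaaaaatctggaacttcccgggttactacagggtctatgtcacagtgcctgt
The Irf8 window holds 2 matches to TTCNNNGAA, 1 to CCAAT and 3 to GGGCGG. The Gbp2 window holds 2 matches to TTTGAA and none to the other 3 motifs. TTCNNNGAA was found in 6 of 18 windows of the interferon gamma list (33.3%), in 8.3% of all 32851 windows and in 7.29% of the first windows of the measured genes. Its presence in these windows is a match of letters only.

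Effector genes of cytotoxic T cells were lower under the tumor label for some granzymes and not for others. Of 25 measured members 3 rose and 16 fell, with a median of -1.10. Gzmf read 4.51, 4.53 and 5.01 in labelled spleen and -2.30, -2.40 and -0.94 in labelled tumor (-6.56 ± 0.40, adjusted p = 7.9e-14). Granzymes C (-6.38), E (-5.87), D (-5.42) and G (-3.10) and the protease inhibitor Serpinb9b (-6.99) fell with it. The granzyme D and G values of the labelled tumor arrays lie near the floors of these arrays, so their differences depend on the floor, and probes of these closely related genes may not tell them apart. Gzmb, the main granzyme of CD8 T cells, fell much less, from 7.60, 7.28 and 7.60 to 6.46, 6.34 and 6.59 (-1.03 ± 0.31, adjusted p = 0.0086). Perforin (Prf1) fell by 2.64. Gzma (1.17), Gzmm (1.72) and Ctsw (0.65) rose, and Gzmk (-0.17), Nkg7 (-0.19) and Klrg1 (0.44) were not called. After quantile normalization Klrg1 rose (1.21, adjusted p = 0.0017), and Ctsw was not called without labelled tumor array 1 (adjusted p = 0.11). Without labelled spleen array 3 or labelled tumor array 3, 1 member rose.

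Among genes of inhibitory receptors, Pdcd1 was one of the 10 largest falls of all genes. Of 18 measured members 1 rose and 12 fell, with a median of -2.13. Pdcd1, which encodes PD-1, read 6.52, 6.32 and 6.37 in labelled spleen and -1.16, -0.49 and -0.37 in labelled tumor (-7.08 ± 0.30, adjusted p = 8.4e-17). Lag3 went from 5.92, 5.99 and 5.87 to 2.11, 1.39 and 1.16 (-4.37 ± 0.28, adjusted p = 2.7e-13). For both, every labelled spleen array lay over 3 units above every labelled tumor array. Rgs16, a regulator of G protein signals induced by activation, had a difference of -4.61, Cd200 -4.58, Havcr2, which encodes TIM-3, -4.16 and the transcription factor Prdm1 -3.75. Ctla4 (-0.78) and Btla (-0.16) were not called, and were called at -0.60 and 0.44 after quantile normalization (adjusted p = 0.034 and 0.049), and Nr4a1, an early target of receptor signals, rose by 0.83. Among 20 measured cytokines and chemokines 0 rose and 16 fell by limma, with a median of -1.86 and with 0 and 16 at an unadjusted p under 0.05. Ccl1 (-6.58), Ccl9 (-5.63), Il10 (-3.85) and Il3 (-3.77) had the largest differences, Ifng had -0.94 (adjusted p = 0.0041), and Tnf (-0.49) and Ccl5 (0.15) were not called. After quantile normalization 1 rose and 14 fell.

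Genes of naive and memory T cells moved the other way. Of 19 measured members 11 rose and 0 fell by limma (11 and 1 at an unadjusted p under 0.05), with a median of 0.76, and after quantile normalization 14 rose and 0 fell. Klf3, a Krüppel-like transcription factor, read 0.42, 0.06 and 1.18 in labelled spleen and 4.00, 5.04 and 5.19 in labelled tumor (4.19 ± 0.33, adjusted p = 2.3e-11). Klf2, which maintains quiescence and the exit receptor S1pr1, read 3.60, 3.69 and 3.46 against 5.85, 5.98 and 6.63 (2.57 ± 0.34, adjusted p = 4.8e-07). Neither gene had overlapping arrays, as was so for 47.5% of all genes. Treml2 (3.93), the transcription factor Eomes (2.12), S1pr1 (2.04), the survival gene Bcl2 (1.21) and Il7r (0.84) rose too, while Ccr7 (0.14) and Bach2 (0.32) were not called. Il7r was not called without labelled tumor array 1 (adjusted p = 0.056), and Bach2 was after quantile normalization (0.89, adjusted p = 7.6e-05).

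None of the genes of the T cell receptor complex and CD8 passed the test. By limma 0 of 12 measured T cell identity genes were called, 3 were lower at an unadjusted p under 0.05, and after quantile normalization 3 were higher and 1 lower. Cd8a read 6.92, 6.67 and 6.94 in labelled spleen and 7.11, 6.49 and 7.08 in labelled tumor (0.05 ± 0.24). Cd3d read 7.16, 6.98 and 7.17 against 3.74, 7.09 and 7.79, with array 1 alone low. Of the 12 genes 7 were lowest of all 6 arrays in labelled tumor array 1, and the list median was -0.50 with it and 0.17 without it. Without labelled tumor array 2, 5 fell, and without labelled tumor array 3, 6 fell.

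**Figure D3:**
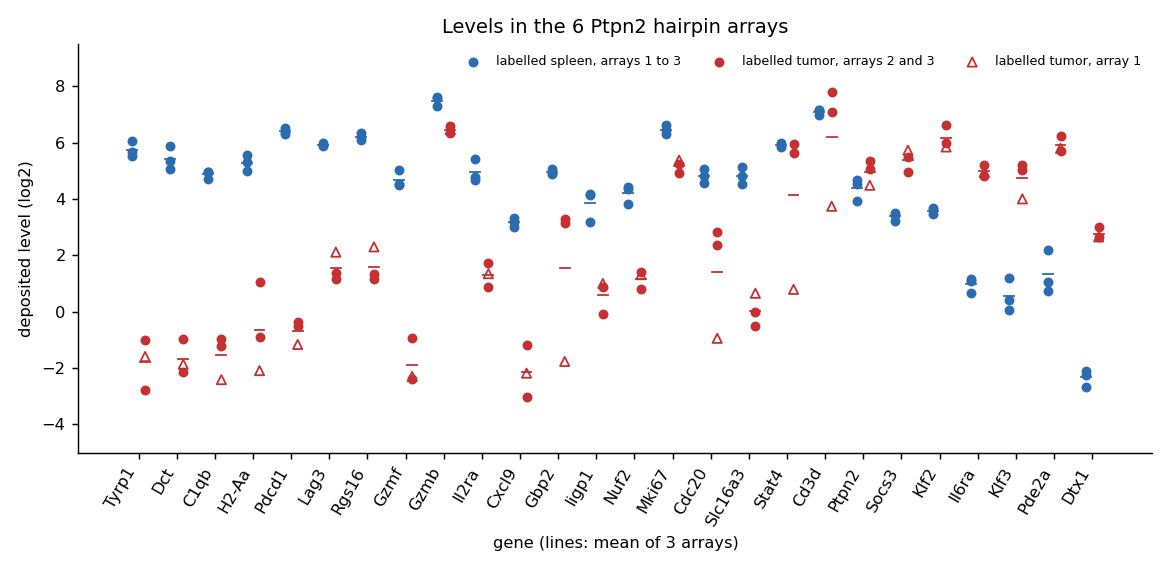
Deposited levels (vertical axis, log2) of selected genes of the lists and of Ptpn2 in the 6 arrays, blue for labelled spleen and red for labelled tumor, with triangles for labelled tumor array 1 and lines for the mean of 3 arrays. Pdcd1, Lag3 and Tyrp1 stand far apart between labels, Klf2, Klf3 and Il6ra lie higher in labelled tumor, and for Stat4, Cd3d, Gbp2 and Cdc20 array 1 lies far below the other labelled tumor arrays.

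Cell division genes were lower under the tumor label in nearly every member. Of 25 measured genes of mitosis and the kinetochore 0 rose and 24 fell by limma, also at an unadjusted p under 0.05, with a median of -2.29. Kif23 alone was not called (-0.44). Of 27 genes of DNA replication 0 rose and 25 fell (0 and 26 at an unadjusted p under 0.05), with a median of -2.04. Quantile normalization gave 0 and 23, and 0 and 26, and leaving out any of the 6 arrays gave 24 falls in mitosis and 24 to 26 in replication.

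Aurkb, a kinase of chromosome segregation, read 4.68, 4.14 and 4.57 in labelled spleen and 1.30, 1.46 and 0.97 in labelled tumor (-3.22 ± 0.32, adjusted p = 2.7e-09). Nuf2, a kinetochore protein, read 4.41, 3.82 and 4.36 against 1.32, 1.41 and 0.80 (-3.02 ± 0.31, adjusted p = 4.4e-09). For both genes the 3 labelled tumor arrays lay close together. Cdc20, an activator of the anaphase-promoting complex, read 5.07, 4.58 and 4.80 against -0.94, 2.38 and 2.83, so that its difference of -3.40 was -2.21 without array 1. Bub1, a spindle checkpoint kinase, had a difference of -3.14. Mki67, the proliferation marker, fell least of the called members, from 6.62, 6.32 and 6.45 to 5.38, 4.93 and 5.23 (-1.28 ± 0.39, adjusted p = 0.0092). In replication, the loading factor Cdc6 had a difference of -4.00, the replication fork genes Gins1 -3.85 and Cdc45 -3.54, and cyclin E2 (Ccne2) -3.46.

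Promoters of 2 members show the elements that many cell cycle promoters share, present in Cdc20 and absent in Nuf2. They are given as above.
Cdc20, chr4:118437294-118437593, minus strand: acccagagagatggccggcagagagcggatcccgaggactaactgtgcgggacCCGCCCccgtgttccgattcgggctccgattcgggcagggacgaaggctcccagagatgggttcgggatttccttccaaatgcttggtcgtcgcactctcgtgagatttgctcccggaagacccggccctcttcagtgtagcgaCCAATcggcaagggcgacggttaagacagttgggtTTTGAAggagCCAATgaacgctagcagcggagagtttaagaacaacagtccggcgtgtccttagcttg
Nuf2, chr1:169531415-169531714, minus strand: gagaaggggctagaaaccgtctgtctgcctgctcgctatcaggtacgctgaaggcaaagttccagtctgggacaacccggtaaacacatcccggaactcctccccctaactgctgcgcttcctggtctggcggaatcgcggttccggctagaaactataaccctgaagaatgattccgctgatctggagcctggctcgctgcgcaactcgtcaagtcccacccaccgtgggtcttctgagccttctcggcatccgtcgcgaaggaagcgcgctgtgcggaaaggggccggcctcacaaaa
The Cdc20 window holds 2 CCAAT boxes, 1 TTTGAA, known as the cell cycle homology region, and 1 GGGCGG. The Nuf2 window holds none of the 4 motifs. Of the mitosis genes 21 of 25 had a window, of which 17 (81%) held CCAAT and 17 held TTTGAA, against 37.4% and 17.9% of all 32851 windows, and 0 held TTCNNNGAA. GGGCGG was in 17 of the 21 and in 35.7% of all windows. Of the 14453 measured genes with a window, whose first window was read as for the lists, 38.2% held CCAAT, 13.4% TTTGAA and 54% GGGCGG.

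Of 14 cell cycle inhibitors 1 rose and 6 fell, with a median of -0.36, and after quantile normalization 5 rose and 6 fell. Cdkn2c, which inhibits Cdk4 and Cdk6, had a difference of -2.14 and Rbl2, a relative of the retinoblastoma protein, -1.56. Ccng2 read 0.84 in labelled tumor array 1 against 4.78 and 4.47 in the others, and was called at -1.97 with it and not without it (-0.71, adjusted p = 0.065). Of 15 genes of apoptosis and the BCL2 family 2 rose and 4 fell, and 2 fell without labelled tumor array 1, where the median turned from -0.53 to 0.07. After quantile normalization 6 rose and 2 fell, so the balance turned with the scaling. Bbc3, which encodes PUMA, rose by 1.29, and Bcl2l1 had a difference of -1.23. Bid (-1.44) was not called without labelled tumor array 1 (-0.70, adjusted p = 0.094), nor Bak1 (-1.30) without labelled tumor array 3 (-0.997, adjusted p = 0.070) or after quantile normalization (-0.58, adjusted p = 0.13).

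The immediate early genes, which T cells induce first after stimulation, were divided. Of 22 immediate early genes 6 rose and 3 fell, with a median of 0.19, and after quantile normalization 11 rose and 4 fell. Fosb read 4.02, 3.78 and 4.27 in labelled spleen and 5.74, 5.89 and 6.45 in labelled tumor (2.00 ± 0.30, adjusted p = 4.9e-06), and Fos (0.91), Egr1 (0.88) and Tnfaip3 (0.97) rose with it. Ier3 (-3.02), Egr2 (-2.55) and Egr3 (-1.73) fell. The count of rises was 2 without labelled spleen array 2 or labelled tumor array 3, where in the latter case the median was -0.06, and 10 without labelled tumor array 1. Among 23 genes of anergy and receptor brakes 3 rose and 11 fell, with a median of -0.91. Spry2 and Spry1, which dampen growth factor signals, had differences of -4.04 and -3.35, the phosphatase Dusp4 -3.03 and the ubiquitin ligase Rnf128 -2.69, whereas Dgka, which removes diacylglycerol, rose by 1.32 and Cblb was not called (-0.21).

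Metabolic genes were lower under the tumor label. Of 23 genes of glycolysis and hypoxia 0 rose and 18 fell by limma, the same counts as at an unadjusted p under 0.05 and after quantile normalization, with a median of -1.23. Slc16a3, the lactate exporter MCT4, read 4.81, 5.15 and 4.52 in labelled spleen and 0.66, -0.02 and -0.52 in labelled tumor (-4.79 ± 0.36, adjusted p = 9.5e-12). Bnip3, a target of hypoxia-inducible factors, went from 5.09, 5.47 and 4.90 to 1.93, 1.24 and 1.40 (-3.63 ± 0.24, adjusted p = 6.3e-13). Both are low in all 3 labelled tumor arrays. Ankrd37 (-3.26), Vegfa (-3.20), Hk2 (-3.20) and Tpi1 (-2.98) fell too, and the glucose transporter Slc2a1 (-0.05) and Gapdh (-0.21) were not called, the latter called after quantile normalization (-0.52, adjusted p = 4.9e-06).

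Oxidative phosphorylation depended on labelled tumor array 1. With it 0 of 22 members rose and 16 fell by limma, as at an unadjusted p under 0.05, with a median of -1.11. Without it 8 fell, with a median of -0.55. Cox6c, a subunit of cytochrome c oxidase, read 6.33, 6.23 and 6.50 against 2.63, 5.66 and 5.98, and neither it (-0.53, adjusted p = 0.12) nor Atp5o (-0.40, adjusted p = 0.22) was called without array 1. Cytochrome c (Cycs, -1.56) and Ndufa4 (-1.40) were called with and without it. Of 15 genes of cholesterol synthesis 0 rose and 12 fell by limma, as at an unadjusted p under 0.05, with a median of -0.995, and after quantile normalization 1 rose and 6 fell. Idi1, which isomerises the isoprenoid precursor, went from 5.50, 4.94 and 5.55 to 1.85, 2.90 and 2.36 (-2.96 ± 0.30, adjusted p = 4.4e-09). Msmo1 (-2.05), Fdps (-1.87) and Sqle (-1.84) fell with it.

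Of 23 genes of the ATF4 and unfolded protein responses 2 rose and 14 fell, with a median of -1.09. Asns, which makes asparagine, read 4.73, 4.71 and 4.72 in labelled spleen and 0.13, 1.27 and 0.29 in labelled tumor (-4.16 ± 0.34, adjusted p = 7.0e-11). Chac1 (-2.61), Pdia4 (-2.52) and Sdf2l1 (-2.38) fell, and Dnajb9, a chaperone of the endoplasmic reticulum, rose by 1.65. Of 13 heat shock chaperones 0 rose and 7 fell by limma, as at an unadjusted p under 0.05, and 3 fell without any 1 of the labelled spleen arrays or labelled tumor array 1. Hspd1 went from 6.74, 6.40 and 6.59 to 2.52, 5.25 and 5.31 (-2.22 ± 0.43, adjusted p = 0.00016). Hspe1 (-1.47) rested on labelled tumor array 1 (without it -0.12, adjusted p = 0.74), and was not called without labelled spleen array 1, 2 or 3 either (adjusted p = 0.079, 0.050 and 0.059). Hspa1a (-2.67, adjusted p = 0.042) was not called without any of the arrays but labelled tumor array 1, with adjusted p between 0.053 and 0.28, nor after quantile normalization (adjusted p = 0.13). Hspb1 (-1.96) was not called without labelled spleen array 1 or 2 (adjusted p = 0.053 and 0.055).

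Among 18 genes of homing and residency, 5 passed the test upward and 2 downward, with 8 rises without labelled tumor array 1 or after quantile normalization, and 3 without labelled spleen array 1. Itgb7, an integrin subunit of gut homing, rose from 4.46, 4.75 and 4.45 to 6.59, 5.92 and 6.48 (1.77 ± 0.31, adjusted p = 4.0e-05). Cxcr6, a chemokine receptor of tissue T cells, went from 5.37, 4.99 and 5.48 to 3.82, 3.34 and 2.18 (-2.16 ± 0.42, adjusted p = 0.00016). S1pr5 rose by 1.95 below 0 in every array, and Ccr8 (-1.38, adjusted p = 0.030) was not called without labelled spleen array 2 or 3 or labelled tumor array 1 or 2 (adjusted p = 0.13, 0.060, 0.090 and 0.15).

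Markers of other cell types went against the tissue labels. Of 15 measured melanocyte genes 0 rose and 12 fell by limma, as at an unadjusted p under 0.05, with a median of -3.93. Tyrp1, an enzyme of melanin synthesis, read 5.66, 5.52 and 6.07 in labelled spleen and -1.59, -2.77 and -1.01 in labelled tumor, the largest fall of all named genes (-7.54 ± 0.37, adjusted p = 8.2e-16). Mlana (-7.33), Dct (-7.09) and Ptgds (-6.99) fell as far. The labelled spleen arrays, not the labelled tumor arrays, thus held the pigment cell RNA: log2 of the summed level of the list was 8.11, 7.96 and 8.64 in labelled spleen and 3.32, 3.71 and 4.09 in labelled tumor. B16 is a pigment cell line, so the level runs opposite to what the labels name, and the labels are used here as given.

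Of 21 macrophage genes 1 rose and 19 fell, with a median of -3.21. C1qb, a complement subunit made by macrophages, read 4.95, 4.70 and 4.96 in labelled spleen and -2.41, -0.98 and -1.21 in labelled tumor (-6.41 ± 0.52, adjusted p = 6.1e-11), and Lyz2 (-5.54), Cd14 (-4.98) and Csf1r (-4.88) fell too. Log2 of the summed level was 8.71, 8.57 and 8.72 against 6.15, 7.11 and 7.44. Of 11 genes of dendritic cells and MHC class II 1 rose and 5 fell, H2-Aa (-5.92), H2-Ab1 (-4.70), Cd74 (-4.51) and H2-Eb1 (-4.15) among them, and the sum was 7.52, 7.68 and 7.69 against 4.76, 5.32 and 4.68. Whether these cells contribute to the falls of genes that T cells and other cells share was not tested. The sum of the T cell identity genes was 9.99, 9.75 and 10.04 against 8.97, 9.82 and 10.38.

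B cell genes rose. Of 14 measured members 12 rose and 0 fell by limma (12 and 0 at an unadjusted p under 0.05), with a median of 1.68, 7 rose without labelled spleen array 1, and 8 rose after quantile normalization. Igk, the kappa light chain, whose probes may take signal from related chains, read -0.50, 0.81 and -1.33 in labelled spleen and 4.60, 6.18 and 4.99 in labelled tumor (5.60 ± 1.07, adjusted p = 0.00014). Ebf1 (2.86) and Bank1 (2.38) rose, and Jchain (2.10, adjusted p = 0.034) was not called without labelled spleen array 1 or 2 or labelled tumor array 2 (adjusted p = 0.093, 0.086 and 0.14). Log2 of the summed level was 4.50, 4.74 and 4.64 against 5.96, 7.11 and 6.50. Of 9 erythroid genes 4 rose: Slc4a1 read -1.76, 3.60 and -0.50 in the labelled tumor arrays, so that array 2 carried the difference (3.12 with it, 1.54 without, adjusted p = 0.23). Car1 (2.75, and 1.47 without array 2, adjusted p = 0.13) and Ermap (2.11, and 1.10 without it, adjusted p = 0.15) were the same, Klf1 rose by 1.79, and the erythroid sum was 1.38, 1.73 and 1.27 against 1.85, 5.74 and 2.71. The count of erythroid rises was 7 without labelled tumor array 1, 2 without labelled tumor array 2 and 1 after quantile normalization, where the median went from 1.79 to 0.87 and Slc4a1, Car1, Ermap and Klf1 were not called (adjusted p = 0.096, 0.17, 0.17 and 0.22). Slc4a1 was not called without any 1 labelled spleen array either (adjusted p = 0.054 to 0.062).

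The remaining marker lists were near the floor. Of 12 neutrophil genes 3 rose (Ngp by 1.94, Cxcr2 by 1.33 and Camp by 1.24), all with means below 0 in both labels, and after quantile normalization 1 rose and the median turned from 0.80 to -0.23. Of 13 stroma and endothelium genes 4 rose and 1, Sparc, fell (-4.92 ± 0.48, adjusted p = 2.4e-09), with sums of 4.41, 4.49 and 4.85 against 3.72, 3.22 and 4.15. The neutrophil count was 1 without labelled spleen array 1 or 3 or labelled tumor array 3. Camp was not called without any of these (adjusted p = 0.086 to 0.12), nor was Cxcr2 without any labelled spleen array or labelled tumor array 3 (adjusted p = 0.050 to 0.36), and after quantile normalization neither was (adjusted p = 0.29 and 0.17). Of the stroma list 1 rose without labelled spleen array 1, labelled tumor array 1 or labelled tumor array 3, and 2 without labelled spleen array 2 or 3; the median turned from 0.24 to -0.03 after quantile normalization. Cdh5 (2.08) lost its call without labelled tumor array 1 (adjusted p = 0.058), Tek (1.36) without labelled spleen array 1 or 2 or labelled tumor array 3 (adjusted p = 0.080, 0.075 and 0.24) or after quantile normalization (adjusted p = 0.24), and Dcn (1.24) without labelled spleen array 1 or 3 or labelled tumor array 1 or 3 (adjusted p = 0.17, 0.052, 0.13 and 0.086). Of 8 genes of CD4 and NK cells 1 rose and 2 fell, with a median of -0.20, and after quantile normalization 0 rose and 5 fell, with a median of -0.79. Ikzf2, which regulatory and activated T cells express, had a difference of -2.52, Zbtb7b one of -0.78, and Klra1 rose by 1.33. Zbtb7b was not called without labelled spleen array 2 or 3 or labelled tumor array 1 (adjusted p = 0.051, 0.078 and 0.16), nor Klra1 without labelled spleen array 1 or labelled tumor array 1 or 3 (adjusted p = 0.082, 0.073 and 0.18). Without labelled tumor array 1 the list had 0 rises and 1 fall. Foxp3 (-0.22) and Cd4 (-0.79) were not called. After quantile normalization Klra1 was not called (0.31, adjusted p = 0.25) and Cd4 was (-1.17, adjusted p = 0.030).

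Several of the largest differences lay outside these lists. Tmem86b, a lysoplasmalogenase, read -2.86, -1.84 and -2.12 in labelled spleen and 3.17, 3.21 and 3.83 in labelled tumor (5.67 ± 0.50, adjusted p = 2.2e-10). Dtx1, a ubiquitin ligase of the Notch pathway, read -2.66, -2.11 and -2.23 against 2.65, 2.64 and 3.00 (5.09 ± 0.47, adjusted p = 7.4e-10). Pde2a, a phosphodiesterase of cyclic nucleotides, read 1.07, 2.20 and 0.73 against 5.79, 5.69 and 6.24 (4.58 ± 0.36, adjusted p = 3.0e-11). For each the 2 labels are far apart and labelled tumor array 1 lies with the others. Igkv8-30 (4.84), an immunoglobulin segment whose probes can take signal from related segments, Rflnb (4.76), Aqp9 (4.67), Tdrp (4.66), Cphx3 (4.53) and Cacna2d4 (4.27) complete the 10 largest rises. Of the 10 largest falls, Lyz1 (-7.01), a lysozyme whose probes may share signal with Lyz2, and Nrgn (-6.47) are in no list.

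How far this belongs to the Ptpn2 hairpin was asked by comparing the same difference in the other transductions. Alone, LacZ gave 1148 rises and 3442 falls, Ppp2r2d 1474 and 2633, Egr2 1910 and 2891, Arhgap5 1945 and 3933 and Alk 6038 and 3645. For the lists, the Ptpn2 median lay within the range of the other 5 in 14 of 31, above it in 4 and below it in 13 on the deposited values. The melanocyte median was -3.93, with -2.78 to -4.66 in the other 5, and the naive and memory median 0.76, with 0.69 to 1.15. Pdcd1 had differences of -7.32 to -7.94 in the other 5 and -7.08 here. Under both scalings the Ptpn2 median lay above the other 5 in 2 lists, mitosis and cytotoxic effectors (-2.29 and -1.10, beside -3.04 to -4.37 and -1.90 to -2.42). It lay below them under both in 8: type I interferon-stimulated genes (-0.76, beside -0.41 to 0.49), interferon gamma response (-0.69, beside -0.40 and higher), anergy (-0.91, beside -0.52 to -0.13), apoptosis (-0.53, beside -0.19 to 0.30), T cell identity (-0.50, beside -0.29 to 0.39), heat shock (-0.80, beside -0.53 to -0.10), immediate early genes (0.19, beside 0.42 to 1.02) and oxidative phosphorylation (-1.11, beside -0.82 to -0.45). Labelled tumor array 1 was low for many genes of several of these lists, as given above. Without it, on the deposited values, the medians of most of these lists lay within the range of the other 5. These were T cell identity (0.17), apoptosis (0.07), immediate early genes (0.76), oxidative phosphorylation (-0.55), heat shock (-0.19) and anergy (-0.32). The type I (-0.50) and interferon gamma (-0.60) medians stayed below that range, and mitosis (-2.29) and cytotoxic effectors (-1.32) stayed above it. These compare medians of lists. Gene by gene, 15 of 25 cytotoxic and 23 of 25 mitosis estimates lay above the mean of the other 5. Over all genes 10175 of 18194 did.

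**Figure D4:**
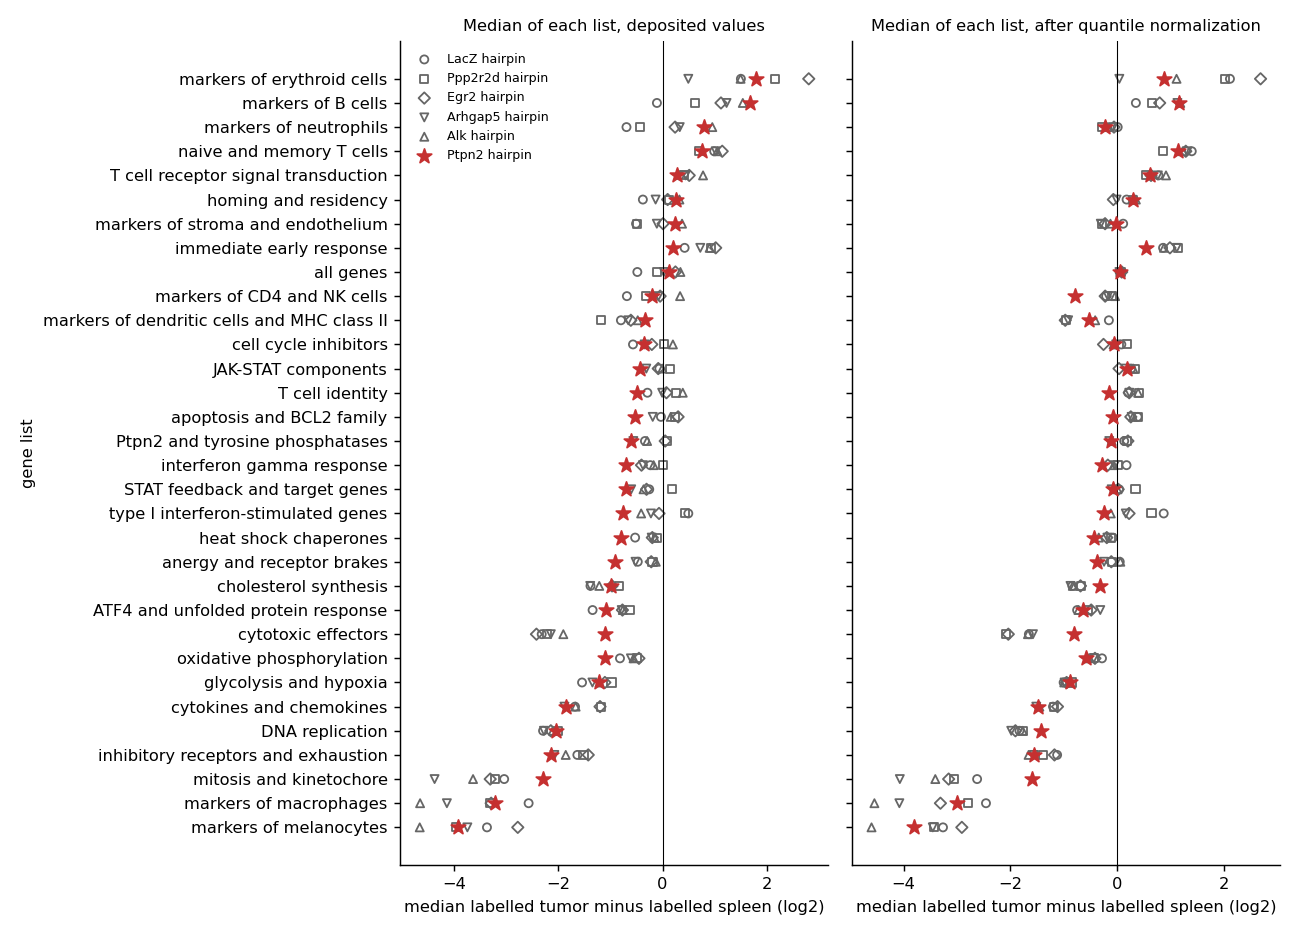
Median difference, labelled tumor minus labelled spleen (horizontal axis, log2), over the measured genes of each list and over all genes, with 1 symbol per transduction and a red star for the Ptpn2 hairpin, on the deposited values (left) and after quantile normalization (right). The stars lie to the right of the 5 other symbols for mitosis and cytotoxic effectors in both panels, to the left of them for 13 lists in the left panel and 9 in the right, and among them for 14 and 18.

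The difference in Ptpn2 arrays was tested against the mean of the difference in the other 5 transductions as an interaction term of the same limma fit. This called 111 genes, 85 with a higher and 26 with a lower difference in Ptpn2 arrays, 0.61% of those tested (0.467% and 0.143%). At an unadjusted p under 0.05, 1904 of the 18194 genes were higher and 1538 lower. After quantile normalization 382 were called (2.1%), and 98 of the 111 were called in both. Leaving out 1 array moved the count from 48 without labelled spleen array 2 to 3110 without labelled tumor array 2, with 53 and 59 without labelled spleen arrays 1 and 3, 59 without labelled tumor array 1 and 621 without labelled tumor array 3. Of the 111, 49 were also called without labelled tumor array 1, after quantile normalization, and after quantile normalization without that array.

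Gzmb, Gzmk and Klrg1, of the cytotoxic effector genes, had higher levels in all Ptpn2 labelled tumor arrays than in any of the other 15. Of 25 members 15 had an estimate above 0, beside 10175 of all 18194 genes. The median estimate was 0.17, beside 0.10 over all genes, and 0.45 beside 0.0047 after quantile normalization. By limma 6 had a higher difference and 0 a lower one (11 and 0 at an unadjusted p under 0.05, 10 and 0 after quantile normalization). The count was 4 without labelled spleen array 1 and 5 without labelled spleen array 2 or 3 or labelled tumor array 1. It was 6 without labelled tumor array 3. Without labelled tumor array 2 it was 11, and the count over all genes, given above, was then largest as well. Gzmb had 6.46, 6.34 and 6.59 in the Ptpn2 labelled tumor arrays, while the 15 other labelled tumor arrays ran from 2.95 over a median of 3.89 to 5.03. No other labelled tumor array reached the Ptpn2 values, and in labelled spleen the Ptpn2 arrays (7.28 to 7.60) lay within the range of the others (6.75 to 8.31). Its difference of -1.03 compared with -3.53 in LacZ, -2.29 in Ppp2r2d, -3.65 in Egr2, -3.89 in Arhgap5 and -3.86 in Alk, which gave 2.41 ± 0.34 against their mean (adjusted p = 0.00011).

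Gzmk, a granzyme of memory-like CD8 T cells, was higher in the Ptpn2 arrays under both labels. It read 4.91, 5.04 and 5.29 in labelled spleen and 5.30, 4.76 and 4.67 in labelled tumor, against 2.18 to 3.76 and -0.32 to 1.65 in 15 arrays each of the other transductions. The groups do not overlap under either label. The Ptpn2 difference of -0.17 stood beside -1.85 to -2.55 in the others (2.04 ± 0.33, adjusted p = 0.00096). Against LacZ alone, Gzmk was higher by 3.78 in labelled tumor (adjusted p = 1.3e-09) and by 2.10 in labelled spleen (adjusted p = 0.00016).

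Klrg1, an inhibitory receptor of effector CD8 T cells, read 1.01, 1.16 and 1.23 in labelled spleen and 1.96, 1.56 and 1.19 in labelled tumor, where the other 15 arrays ran from -1.33 to -0.49. Every Ptpn2 labelled tumor array was above 0 and every other labelled tumor array below it, and the difference of 0.44 stood beside -1.27 to -2.42 (2.37 ± 0.33, adjusted p = 7.9e-05). Gzmc, whose difference was -6.38 beside -7.81 to -9.03 in the others (2.15 ± 0.35, adjusted p = 0.00091), Gzmd (2.37) and Gzmg (2.47) complete the 6 of the list, and for Gzmd the call was lost without labelled tumor array 1 (2.43, adjusted p = 0.13). For granzymes C, D and G the labelled spleen level was lower in Ptpn2 than in LacZ arrays (-1.68, -2.52 and -3.02, adjusted p = 0.0020, 0.0039 and 0.00029), while in labelled tumor the differences from LacZ were 0.52, 1.01 and 0.53 and none was called (adjusted p = 0.33, 0.26 and 0.49). Gzma had a difference of 1.17 beside -0.48 to -0.08 in the others, and this was not called (1.49, adjusted p = 0.11). Havcr2, of the inhibitory receptors, had -4.16 beside -4.73 to -6.58 (1.62, adjusted p = 0.021).

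Of 25 mitosis genes 7 had a higher difference than the mean of the other 5 (19 at an unadjusted p under 0.05), 0 a lower one, and the estimate was above 0 in 23. After quantile normalization 20 had a higher difference, and 19 without labelled tumor array 1 as well. On the deposited values the count was 2 without labelled tumor array 1, 4, 1 and 3 without labelled spleen arrays 1 to 3, and 15 without labelled tumor array 2. The list median was 2.15, 2.16 and 1.81 in the Ptpn2 labelled tumor arrays, and the other 15 labelled tumor arrays reached up to 1.88, in 1 Egr2 array, so that the arrays overlapped. In labelled spleen it was 4.84, 4.14 and 4.73 in Ptpn2 arrays, within the 3.92 to 4.93 of the others.

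Nuf2 had a difference of -3.02 beside -3.76 to -6.37 in the others (1.87 ± 0.34, adjusted p = 0.0031) and Kif11, the spindle motor, -2.65 beside -3.71 to -6.34 (2.04 ± 0.38, adjusted p = 0.0053). Both were called without labelled tumor array 1 (adjusted p = 0.017 and 0.032). Cenpf (1.91), Ccnb2 (1.88), Tpx2 (1.86), Mki67 (1.74) and Cenpe (1.45) were called with all arrays and not without that array (adjusted p = 0.15, 0.15, 0.098, 0.20 and 0.24). Mki67 read 5.38, 4.93 and 5.23 in Ptpn2 labelled tumor and 1.65 to 5.03 in the other 15. In DNA replication 0 of 27 genes were called against the mean of the other 5 by limma (2 higher and 1 lower at an unadjusted p under 0.05, 3 and 0 after quantile normalization), and the median of -2.04 lay beside -2.003 to -2.292.

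**Figure D5:**
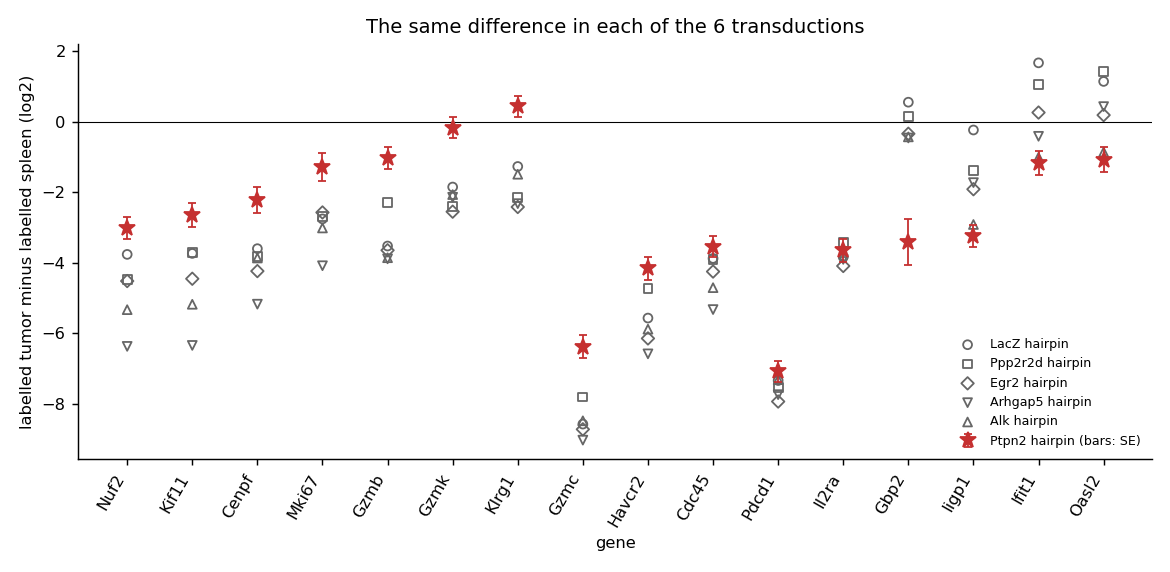
Difference, labelled tumor minus labelled spleen (vertical axis, log2), of 16 genes in each of the 6 transductions, with the Ptpn2 hairpin as a red star with its SE. Gzmb, Gzmk, Klrg1 and Nuf2 lie above the other 5 symbols, Gbp2 and Iigp1 below them, and Il2ra among them.

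Few interferon genes passed this test. Of 23 members of the interferon gamma response 2, Gbp2 and Iigp1, had a lower difference than the mean of the other 5 and 0 a higher one (9 and 0 at an unadjusted p under 0.05, 6 and 0 after quantile normalization), and 0 to 6 were lower when 1 array was left out, with 0 without labelled spleen array 1 or 3, 1 without labelled spleen array 2, 5 without labelled tumor array 3 and 6 without labelled tumor array 2. Iigp1, a GTPase induced by interferons, read 4.14, 3.20 and 4.19 in Ptpn2 labelled spleen and 1.00, 0.88 and -0.07 in labelled tumor. The other labelled spleen arrays ran from 0.92 to 2.72, so that all 3 Ptpn2 arrays lay above them, while labelled tumor overlapped (-0.41 to 1.36). Its difference of -3.24 stood beside -0.24 to -2.92 (-1.60 ± 0.34, adjusted p = 0.016).

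Gbp2 read 5.07, 4.90 and 4.94 in Ptpn2 labelled spleen, above the 2.79 to 4.14 of the other 15 arrays. Its difference was -3.41 beside -0.46 to 0.55 in the others (-3.30 ± 0.71, adjusted p = 0.019), and -1.64 without labelled tumor array 1 (adjusted p = 0.0042). Without labelled spleen array 1, 2 or 3 it was not called (adjusted p = 0.081, 0.060 and 0.069). Of 24 type I interferon-stimulated genes 0 were called against the other 5 (10 lower at an unadjusted p under 0.05, 3 lower after quantile normalization).

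Against LacZ alone the same interaction test called 3151 genes, 17.3%, of which 2747 had a higher difference, 2638 of these with a mean below 0. At an unadjusted p under 0.05, 5497 of the 18194 genes were higher and 1209 lower. After quantile normalization 435 were called (2.39%), 234 of them among the 3151, and the median over all genes moved from 0.29 to -0.0024. The count ran from 263 without LacZ labelled tumor array 1 to 6670 without Ptpn2 labelled tumor array 2. It also moved by over 1.5 times without Ptpn2 labelled spleen array 1 (827), 2 (1691) or 3 (1841), Ptpn2 labelled tumor array 1 (1259) or 3 (699), LacZ labelled spleen array 1 (4760) or 2 (555) and LacZ labelled tumor array 2 (5324) or 3 (1066). The fit on these 12 arrays alone called 0, with 3545 higher and 391 lower at an unadjusted p under 0.05. The LacZ arrays labelled spleen stood apart from the other arrays of that label. Their mean correlations with their own group were 0.967 to 0.971, against 0.986 and up in the other labelled spleen groups. The floor of LacZ labelled spleen array 2 was -1.45. The part of these arrays in the comparisons with LacZ was not tested.

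The interferon lists were lower here as well, under both scalings. Of 24 type I genes 8 had a lower difference in Ptpn2 than in LacZ arrays and 0 a higher one (12 and 0 at an unadjusted p under 0.05, 7 and 0 after quantile normalization), all 24 estimates were below 0, and the median was -0.84 beside 0.29 over all genes. Of the interferon gamma genes 4 were lower and 0 higher (7 and 1 at an unadjusted p under 0.05). The type I count was 4 without Ptpn2 labelled spleen array 1 and 5 without Ptpn2 labelled tumor array 1 or 3. Ifit1, an RNA-binding protein of the antiviral response, read 2.31, 1.88 and 2.48 in labelled spleen and 1.35, 1.57 and 0.24 in labelled tumor, a difference of -1.17 beside 1.67 in LacZ (-2.84 ± 0.49, adjusted p = 0.0031). Its group means in LacZ were 1.12 and 2.79, so the estimates of the 2 transductions had opposite signs.

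Levels were also compared with LacZ under each label. In labelled spleen 8 of the 24 type I genes were higher with the Ptpn2 hairpin than with LacZ and 0 lower. Of all 18194 genes 9.58% were called, 614 higher and 1129 lower. All 24 type I estimates were above 0, with a median of 0.88. Of the interferon gamma genes 5 were higher, with a median of 0.41. Markers of other cells moved in the same comparison: of 21 macrophage genes 3 were higher and 1 lower, with a median of 0.71 and 17 estimates above 0, of 15 melanocyte genes 2 were higher, also with a median of 0.71, and of 14 B cell genes 4 were lower, with a median of -0.999, beside -0.15 over all genes. The part of these cells in the interferon values was not tested. In labelled tumor 0.764% of all genes were called against LacZ, 117 higher and 22 lower, and of the type I genes 0 were higher and 1, Ifit1, lower (-1.73, adjusted p = 0.0074). The median level of the interferon gamma list was 5.51, 5.33 and 5.51 in Ptpn2 labelled spleen, and the group means of the other 5 were 4.60 to 4.99, with 1 LacZ array at 5.53. For the type I list the labelled spleen group mean was lowest in LacZ, 2.87. It was 3.26 to 3.33 in Ppp2r2d, Egr2, Arhgap5 and Alk and 3.80 in Ptpn2 arrays. These comparisons and the interaction share the LacZ and Ptpn2 arrays, so they are views of the same values.

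Of the cytotoxic list 11 genes had a higher difference in Ptpn2 than in LacZ arrays and 1 a lower one, and 9 and 1 after quantile normalization. Gzmb (2.49, adjusted p = 0.0039), Gzmk (1.68, adjusted p = 0.017) and Klrg1 (1.71, adjusted p = 0.015) were among the 11. None of the 25 mitosis genes was called against LacZ by limma (8 higher at an unadjusted p under 0.05, 2 higher after quantile normalization), and 0 of the 26 JAK-STAT components were (4 lower at an unadjusted p under 0.05, 0 after quantile normalization). These unadjusted counts stand beside 5497 higher and 1209 lower of all 18194 genes.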

How the data were processed

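The authors deposited log2 values of 45101 probe sets on 36 arrays, made with RMA per the submitters' processing notes; their centring is not given in the sources used here, and array medians are below 0. RMA commonly ends in a shared distribution, but the deposited arrays differ in their floors, so quantile normalization and cyclic loess were alternatives. Of the probe sets 34958 have 1 gene symbol, 932 several and 9211 none. Each gene was read from its probe set with the highest mean over all arrays, giving 18194 genes. Differences were fitted with limma 3.58.1 (R 4.3.3) with 12 group coefficients over 36 arrays (lmFit, eBayes), and p-values were adjusted by Benjamini-Hochberg. The fit was tested on simulated data with the same normal spread for every array, so no array was like labelled tumor array 1. Apart from a small set of planted changes, no simulated gene differed between labels, while 49.2% were called in the main comparison. The counts below therefore need not hold for that comparison. Of 50 changes of 2 on the log2 scale, 44 were called in the right direction in the main comparison, 29 against LacZ and 42 against the other 5. Of 50 changes of 1, these counts were 13, 3 and 6. The number of arrays, 3 a group, limits the precision.

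Members and lists were chosen with earlier results of these data known. Genes were named as the 10 largest non-overlapping called differences each way, up to 4 called members of each list (up to 8 for JAK-STAT, STAT target and phosphatase genes) and the 5 largest differences from the other transductions each way. Others were named for their role after their values were seen. Summed levels are log2 of the sum of a list's values after undoing the log. Promoter windows came from RefSeq on GRCm38.p6.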

Additional observations from a re-analysis of the deposited data

Results flagged for a closer look

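The values here are differences between contrasts, the Ptpn2 difference (labelled tumor minus labelled spleen, log2) minus that of LacZ or minus the mean of the other 5 transductions, each past an adjusted p of 0.05 in the interaction test of limma.

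Beyond the genes described above, the differences from LacZ included interferon-stimulated genes on the lower side. Ifit1 had -2.84, Ifit3 -2.49, Oasl1 -2.44, Oasl2 -2.21, Mx2 -1.78, Ifit2 -1.65 and Zbp1 -1.21. The GTPases Gbp2, Iigp1 and Irgm2 had -3.96, -3.01 and -2.58, and Gpr137b and the Fc receptor Fcgr2b -3.06 and -2.97. On the higher side stood genes that are dim in most arrays: Ntrk3 (4.99), Ugt2b36 (4.96), Zfp957 (4.93), Kalrn (4.80) and Lad1 (4.79). Of these, Ntrk3 and Zfp957 were not called without LacZ labelled tumor array 1 (3.81, adjusted p = 0.065, and 3.46, adjusted p = 0.051), and Ugt2b36 was not called after quantile normalization (3.54, adjusted p = 0.12).

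Against the other 5, the cytotoxic effector genes with a higher difference were Gzmg (2.47), Gzmb (2.41), Gzmd (2.37), Klrg1 (2.37), Gzmc (2.15) and Gzmk (2.04). Of the inhibitory receptor list it was Havcr2 (1.62). Of the homing and residency list they were Cx3cr1 (1.60), a chemokine receptor of effector cells, and the integrin Itga1 (1.57). The mitosis genes with a higher difference were Kif11 (2.04), Cenpf (1.91), Ccnb2 (1.88), Nuf2 (1.87), Tpx2 (1.86), Mki67 (1.74) and Cenpe (1.45). The dim genes Idi2 (4.18), Dsp (4.02), Grb10 (3.93), Slc6a12 (3.92) and Il23a (3.89) had the largest values. On the lower side were Gbp2 (-3.30), Tctex1d1 (-2.79), Fcgr2b (-2.35), Armcx3 (-2.24), S1pr1 (-2.23), the NK receptor Klra8 (-1.96) and Iigp1 (-1.60). Armcx3, Fcgr2b and S1pr1 were not called without any 1 of the Ptpn2 labelled spleen arrays or without labelled tumor array 1. Probes of the Klra and granzyme families can take signal from near-identical relatives.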

How the results depend on the processing

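Limits of these results are groups of 3 arrays, lowest values that differ between arrays, and signal near those values for many genes that rose; their part in the results was not tested. Of 158 results recomputed under the alternatives, 2143 of 2415 values kept their direction and side of the threshold, 259 lost the threshold, 8 gained it and 5 turned sign. Of 136 named calls 86 were kept under every setting run. The fit with only the compared arrays ended 32, and quantile normalization without labelled tumor array 1 ended 23. Quantile normalization of all arrays ended 15, and leaving out labelled tumor array 1 ended 14. The settings without labelled tumor arrays 1 and 3, and with quantile normalization without labelled tumor array 1, were chosen after seeing the data.

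The 4390 rises became 2217 with the filter on dim genes, 1064 with only the compared arrays in the fit, 2243 with array weights, 578 without labelled tumor arrays 1 and 3, and 1945 to 6181 when 1 array was left out. The 4566 falls became 2060 with only the compared arrays and 2230 without arrays 1 and 3, and ran from 3608 to 4594 with 1 array left out. The 3151 differences from LacZ became 898 with the filter, 435 after quantile normalization, 315 after loess, 1757 with weights, 331 after quantile normalization without labelled tumor array 1, 6 without arrays 1 and 3, and 0 with only the compared arrays (3545 higher and 391 lower at an unadjusted p under 0.05), with 263 to 6670 when 1 array was left out. The 111 differences from the other 5 became 170 with the filter, 382 after quantile normalization, 353 after loess, 38 with weights, 238 after quantile normalization without labelled tumor array 1, 19 without arrays 1 and 3, and 48 to 3110 with 1 array left out. The fit with only the compared arrays was not run for them. The causes were not tested.

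Signs turned for Ptpn2 (-0.28), Ptprk (0.31) and Socs2 (0.44) with the mean of probe sets and for Socs2 (0.083) and Stat4 (0.051) after quantile normalization without labelled tumor array 1. Medians of some lists turned sign. That of all genes was -0.33 with the filter, -0.013 after loess, -0.11 without arrays 1 and 3 and -0.021 to 0.21 with 1 array left out. T cell identity had -0.76 to 0.17 with 1 array left out and 0.20 after quantile normalization without labelled tumor array 1. With 1 array left out, homing ran from -0.078 to 0.45, apoptosis from -0.76 to 0.067, immediate early genes from -0.063 to 0.76 and stroma from -0.051 to 0.53. After quantile normalization without labelled tumor array 1 apoptosis had 0.36, JAK-STAT components 0.071, phosphatases 0.060, neutrophils -0.15 and stroma -0.19. After quantile normalization JAK-STAT components had 0.18, neutrophils -0.23 and stroma -0.026, and after loess 0.043, -0.21 and -0.12. Stroma had -0.26 without arrays 1 and 3.

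Replicate numbers did not pair the arrays: the residual correlations of 18 same-numbered pairs ran from -0.24 to 0.24, 4 of them over 0.1. With the replicate number as a block, 4816 genes rose, 4225 fell, 4289 differed from LacZ and 111 from the other 5, and 0 of the 136 named calls ended. Of these 136 genes 75 have other probe sets. In the fit of 34958 probe sets 9 have a called one with the opposite sign: Bcl2l1, Ptprj, Nfkb2, Ptprk, Socs2, Cycs, Acp1, Pdia4 and Lyz1.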
